A study of Saccharomyces cerevisiae with 10 samples.

Results

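The loss of 2 RNA helicases of budding yeast, Saccharomyces cerevisiae, was compared by setting the RNA change in a strain without DBP2 against the RNA change after MTR4 was shut off. For each transcript the change of dbp2 from WT and the change of tet-MTR4-Dox from WT-Dox were taken on log2 densities, and the second was subtracted from the first. All libraries of these 4 groups entered, 8 of the 10 in the series, and a strain without XRN1 did not. Of 10799 yeast transcripts in the table, 9666 were dense enough to be tested.

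WT was strain BY4741, of mating type a, with the alleles his3Δ1, leu2Δ0, met15Δ0 and ura3Δ0 and no treatment. The dbp2 strain was labelled BY4741 as well and carried dbp2Δ::KanMX6 with his3Δ0, leu2Δ0, ura3Δ0, a met- marker and a lysine marker given only as "lys?". WT-Dox was strain BMA64-1A, also of mating type a, with the alleles can1-100, ura3-1, trp1Δ2, leu2-3,112, his3-11,15 and ade2-1. In the same background, tet-MTR4-Dox had the MTR4 gene under a promoter that doxycycline turns off (kanMX6-tetOFF::MTR4), and both BMA64-1A groups were kept in 10 µg/mL doxycycline for 6 hours. All groups were grown at 30 °C in rich medium (YPD) to an OD600 of 0.5, and each had 2 biological replicates. A deletion in one background was therefore set against a 6-hour shut-off with the drug in another, and differences between the helicases cannot be told apart from those between backgrounds, markers or durations of loss.

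Dbp2 is a DEAD-box RNA helicase, a protein that unwinds short RNA duplexes and remodels RNA-protein complexes, and it has been linked to mRNA packaging, transcription termination and cytoplasmic decay. Mtr4 is the helicase that threads RNA into the nuclear exosome, the complex that trims or destroys RNA from its 3' end. It is part of TRAMP, whose poly(A) polymerase tags exosome substrates. Noncoding RNAs are commonly classed by the pathway whose loss reveals them: CUTs by the nuclear exosome, NUTs by the termination factor Nrd1 and XUTs by the cytoplasmic 5' to 3' exonuclease Xrn1.

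The 8 libraries held 15.98 M to 26.97 M reads on features, and 2.06% to 3.14% of these fell on ERCC RNAs, synthetic spike-ins by which the densities appear to have been scaled. A density is a number of reads per base of the transcript's row, divided by a factor per library, so that all changes here are relative to the spike-ins. STE2, the receptor carried by a cells, had a density of 3.91 to 6.45 in the 8 libraries, and MF(ALPHA)1, a pheromone gene of alpha cells, 0.0019 to 0.012. Other mating-type genes were less steady. BAR1, the 1 of 6 listed a-cell genes that fell, did so 5.2-fold in dbp2 and 1.8-fold in tet-MTR4-Dox, while MFA1 rose 2.58-fold and 10.1-fold. Of alpha-cell genes, MF(ALPHA)2 rose 1.60-fold and 8.81-fold, and SAG1 had a density of 0.111 to 0.344. Folds were computed after adding 0.00555 to each density, which understates the changes of scarce transcripts. Adjusted p-values come from limma with Benjamini-Hochberg adjustment over all transcripts tested, a change was called at an adjusted p under 0.05, and errors are standard errors (SE, n = 2 libraries per group).

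DBP2 had a density of 3.49 and 3.41 in WT and 0.0031 and 0.0033 in dbp2, and 3.95 and 3.85 for WT-Dox, then 9.14 and 9.11 in tet-MTR4-Dox. It was all but absent from the deletion strain and higher after the MTR4 shut-off, by 1.23 ± 0.06 on the log2 scale (adjusted p = 1.1e-08). MTR4 had a density of 1.61 and 1.51 in WT, 1.501 and 1.524 in dbp2, 1.49 and 1.30 for WT-Dox, then 0.429 and 0.469 in tet-MTR4-Dox. The shut-off thus left MTR4 RNA at 0.325 times its control level, and dbp2 did not change it detectably (-0.04 ± 0.08, adjusted p = 0.62). XRN1 RNA fell by 0.59 in dbp2 and rose by 0.58 in tet-MTR4-Dox.

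Marker genes showed that the dbp2 strain did not have the genotype of its control. LYS2, of lysine synthesis, was present in WT, with 1.097 and 0.9994, and near absent in dbp2, with 0.0005 and 0.0003. MET17, the gene deleted by met15Δ0, was at 0.0013 and 0.0005 in WT, at 1.75 and 1.64 in dbp2, at 7.87 and 7.68 for WT-Dox, then 1.36 and 1.53 in tet-MTR4-Dox. TRP1, of tryptophan synthesis, was at 0 and 0.0007 for WT-Dox, then 0.129 and 0.128 in tet-MTR4-Dox, while it rose 2.62-fold in dbp2. The part of these markers in the results below was not tested.

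Both helicase strains had more RNA per spike-in across most of the transcriptome, and protein-coding genes moved to a like extent in each. In dbp2, 8175 transcripts were higher (84.6% of those tested) and 486 were lower (5.03%), and in tet-MTR4-Dox 8808 were higher (91.1%) and 305 lower (3.16%). The median protein-coding gene rose 1.75-fold in dbp2 and 1.79-fold in tet-MTR4-Dox, and with libraries scaled to equal protein-coding medians the counts became 4065 higher and 2670 lower in dbp2 and 5969 higher and 2342 lower in tet-MTR4-Dox. Across the 5610 protein-coding genes tested, the changes had a Pearson correlation of 0.61 and a Spearman correlation of 0.69, from comparisons that share no library. Of these genes 83.2% rose and 7.52% fell in dbp2, and 86.1% rose and 5.29% fell in tet-MTR4-Dox. Calls were shared by 77.7% as rises and 3.03% as falls, while 1.25% were higher in dbp2 and lower in tet-MTR4-Dox and 2.35% the converse.

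The changes differed most among transcripts that do not code for protein. The change in tet-MTR4-Dox was the more positive for 4934 transcripts (51.0%), and that in dbp2 for 1361 (14.1%). Only 1544 of the former were protein-coding, 27.5% of those tested, against 1237 (22.0%) in the other direction. Transcripts were counted as alike where both changes were called in one direction and the 95% confidence interval of their difference lay within 1.5-fold, which held for 2483 transcripts (25.7%), of which 2381 were protein-coding (42.4% of these). Opposed calls were few: 74 transcripts (0.766%) were higher in dbp2 and lower in tet-MTR4-Dox, and 179 (1.85%) were lower in dbp2 and higher in tet-MTR4-Dox. Higher in both were 7834 (81.0%) and lower in both 171 (1.77%).

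These counts depend on what the libraries are scaled by. The median difference over all transcripts was -0.38 as deposited, -0.37 after rescaling on protein-coding genes, 0.23 on all transcripts and 1.36 on snoRNAs. The share of called differences in which the dbp2 change was the more positive was 21.6% as deposited, 23.7% on protein-coding genes, 57.9% on all transcripts and 76.6% on snoRNAs. The last of these takes out the rise of snoRNAs in tet-MTR4-Dox described below.

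**Figure D1:**
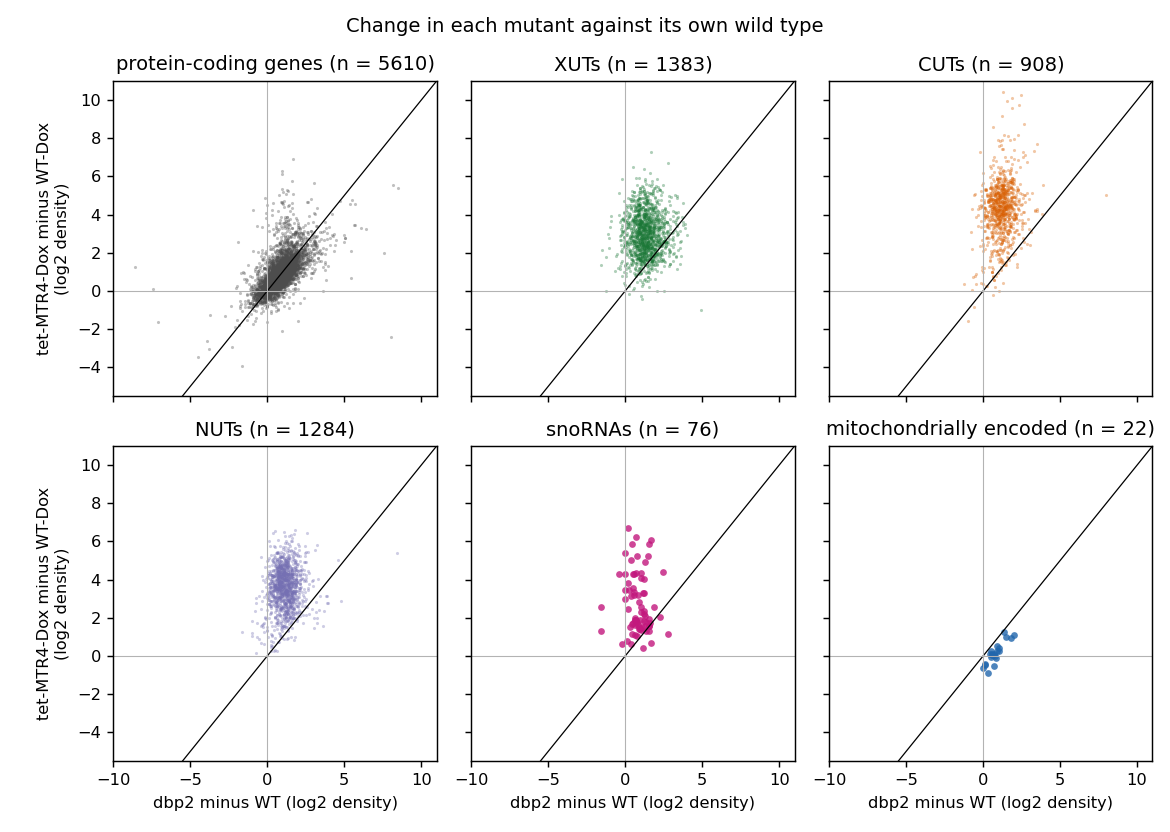
Log2 change of each tested transcript in dbp2 against WT (horizontal) and in tet-MTR4-Dox against WT-Dox (vertical), with 1 point per transcript and a diagonal where both changes are equal. Protein-coding genes lie along the diagonal, XUTs, CUTs, NUTs and snoRNAs mostly above it, and mitochondrially encoded transcripts below it.

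CUTs rose most after the MTR4 shut-off, NUTs less and XUTs least, while all 3 classes rose by a like amount in dbp2. The median CUT was 2.26-fold higher in dbp2 and 20.4-fold higher in tet-MTR4-Dox, the median NUT 2.16-fold and 12.6-fold, and the median XUT 2.43-fold and 7.70-fold. The median difference was -3.15 on the log2 scale for 908 CUTs (-3.31 to -3.06 over the 16 combinations of 1 library per group), -2.56 for 1284 NUTs (-2.67 to -2.42) and -1.60 for 1383 XUTs (-1.67 to -1.55), against -0.38 for all transcripts. Individually, 849 of the CUTs, 1205 of the NUTs and 1033 of the XUTs had the more positive change in tet-MTR4-Dox, and 6, 22 and 50 in dbp2. The shares of all transcripts were 51.0% and 14.1%. With no density filter the medians were -3.135 for CUTs, -2.42 for NUTs and -1.47 for XUTs. Scaled on snoRNAs, the medians were -1.45 for CUTs and -0.85 for NUTs, and that of XUTs turned to 0.078.

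Within the noncoding classes the changes in the strains were only weakly related. The Spearman correlation between the changes was 0.16 for CUTs, 0.05 for NUTs and 0.02 for XUTs. Ordered by control density, the 227 scarcest CUTs had a median difference of -3.54 and the 227 densest -1.96. The 321 scarcest and densest NUTs had -3.08 and -1.53, and the 346 scarcest and densest XUTs -1.90 and -1.13. Transcripts were kept by their mean over all 8 libraries, so those scarce in the controls could pass through a high density in tet-MTR4-Dox. Control density is also a term of both changes, so no conclusion is drawn from this order. Alike within 1.5-fold were 8 CUTs (0.88%), 20 NUTs (1.56%) and 35 XUTs (2.53%), against 25.7% of all transcripts. A scarce transcript with a wide confidence interval cannot be counted as alike whatever its changes. These low counts therefore do not measure how many truly differed.

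CUT307 had the largest difference of any noncoding transcript. Its density was 0.0072 and 0.0109 in WT, 0.0256 and 0.0356 in dbp2, 0.0079 and 0.0063 for WT-Dox, then 17.1 and 17.9 in tet-MTR4-Dox. It was near the detection floor in all but the shut-off libraries, where it rose 1388-fold against 2.47-fold in dbp2 (difference -9.14 ± 0.24, adjusted p = 5.7e-09). CUT342 and CUT676 had densities of at most 0.082 in the other 6 libraries and of 17.1 to 26.7 in tet-MTR4-Dox, with differences of -8.37 ± 0.33 and -8.26 ± 0.30. NUT1395 rose 87.8-fold in tet-MTR4-Dox and 1.31-fold in dbp2. XUT1358 rose 156-fold and 3.22-fold, and XUT1083, whose reads are nearly those of CUT515, 88.6-fold and 1.44-fold.

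Some noncoding RNAs went the other way. CUT122 had a density of 0.0417 and 0.0488 in WT, 12.8 and 12.6 in dbp2, 0.0141 and 0.0112 for WT-Dox, then 0.701 and 0.492 in tet-MTR4-Dox. It rose in both strains and more in dbp2, 251-fold against 32.7-fold (difference 2.94 ± 0.22, adjusted p = 1.5e-06). NUT0604 rose 27.2-fold in dbp2 and 7.31-fold in tet-MTR4-Dox, XUT0251 10.2-fold and 2.25-fold, and NUT0227 matched HSP12, the stress gene described below, within 10% in density in every library. XUT0788 was opposed: its density was 0.0041 and 0.0015 in WT against 0.294 and 0.205 in dbp2, and 0.614 and 0.566 in WT-Dox against 0.286 and 0.287 in tet-MTR4-Dox. Like the marker MET17, it was near absent only in WT (2 and 1 reads) and densest in WT-Dox. The part of the met15Δ0 deletion of WT in this was not tested. XUT0419 was opposed in the other sense, falling 2.86-fold in dbp2 and rising 4.44-fold in tet-MTR4-Dox, although on the snoRNA basis its second change turned to -0.44. Alike were XUT1144, which rose 8.45-fold and 8.43-fold, CUT554 (3.84-fold and 3.68-fold) and NUT0791 (4.37-fold and 4.31-fold), of which the last pair fell in tet-MTR4-Dox on the snoRNA basis, by 0.68 and 0.34.

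snoRNAs, which guide chemical modification of ribosomal RNA, all rose after the MTR4 shut-off, but by amounts that differed with their kind and length. Box C/D snoRNAs guide methylation, box H/ACA snoRNAs guide pseudouridylation, and the ends of many are trimmed by the exosome. All 76 were measured, and 76 rose in tet-MTR4-Dox, where 91.1% of all transcripts tested rose. In dbp2 64 rose (84.2%) and 3 fell (3.95%), against 84.6% and 5.03% of all transcripts tested. The 23 box C/D snoRNAs transcribed from their own genes rose 19.5-fold at the median in tet-MTR4-Dox and 1.61-fold in dbp2, a difference of -3.07 (-3.60 to -2.77 over the 16 combinations) that was called for 23 of 23. The 27 box H/ACA snoRNAs with their own genes rose 3.09-fold and 1.95-fold, and 16 of them (59.3%, against 51.0% of all transcripts) had the more positive change in tet-MTR4-Dox. Their median difference of -0.58 turned to 0.04 on the all-transcript basis and 1.21 on the snoRNA basis.

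Guides cut from longer transcripts lay between these. The 10 polycistronic snoRNAs other than the snR72 to snR78 cluster rose 8.89-fold at the median in tet-MTR4-Dox and 1.84-fold in dbp2, the 7 of that cluster 7.18-fold and 1.74-fold, and the 9 listed as held in introns 9.08-fold and 1.52-fold. Their median differences were -2.54, -1.97 and -2.32, and they stayed below 0 on the snoRNA basis, at -0.75, -0.18 and -0.53. The list of 9 includes snR39B, which lies 377 bases before RPL7A and not within it. It rose 19.4-fold in tet-MTR4-Dox, so the medians of that list are not of intron-held snoRNAs alone.

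Short snoRNAs had the large rises. The 37 of up to 120 bases rose 16.2-fold at the median in tet-MTR4-Dox and the 39 longer ones 3.09-fold, a split chosen after the values were seen. Within the independent box C/D snoRNAs the figures were 20.6-fold for 16 short ones and 3.17-fold for 7 long ones. The 27 independent box H/ACA snoRNAs, all over 120 bases, rose 3.09-fold, so the long ones of both kinds rose by like amounts. Over all 76, length had a Spearman correlation of -0.66 with the change in tet-MTR4-Dox and of 0.08 with that in dbp2. A row sums all reads of a snoRNA, and whether the rise lay in mature or extended forms was not tested.

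**Figure D2:**
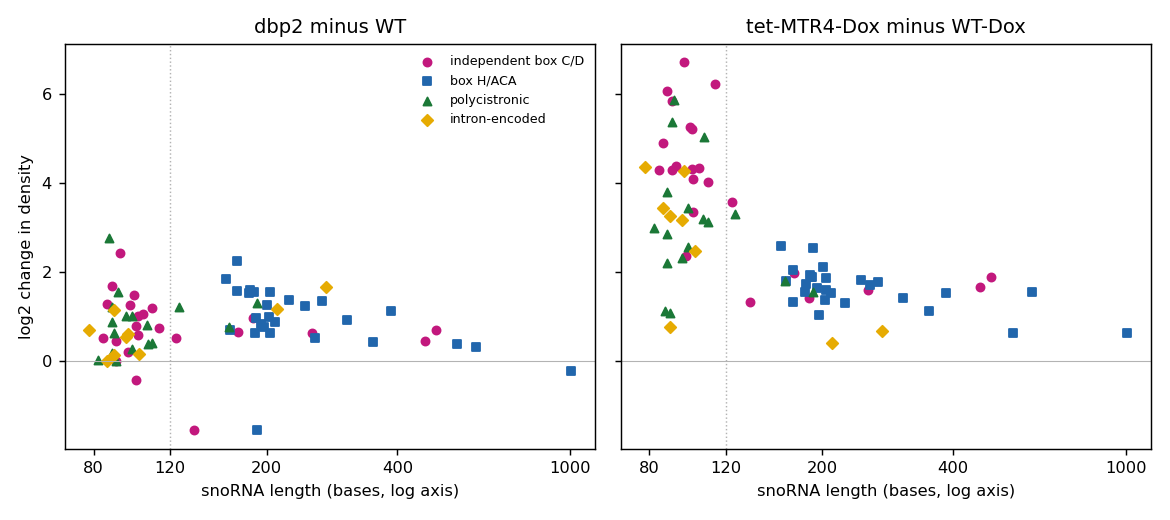
Log2 change of the 76 snoRNAs in dbp2 (left) and in tet-MTR4-Dox (right) against their length on a log axis, by kind of snoRNA, with a dotted line at 120 bases. In tet-MTR4-Dox the shortest box C/D snoRNAs stand highest and the box H/ACA snoRNAs low, while in dbp2 most points lie between 0 and 2 at every length.

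Sequences are given for 3 short box C/D snoRNAs, snR58 and snR61 for a rise after the shut-off alone and snR78 for a larger rise in dbp2, from the RefSeq annotation of genome build R64. The capitals mark the C box (TGATGA) within the first 40 bases and the last D box (CTGA) within the last 20, and 37 of the 76 snoRNA rows (48.7%) hold both. snR58 lies on chrXV:136088-136183 (minus strand), snR61 on chrXII:794486-794575 (minus strand) and snR78 on chrXIII:297278-297364 (plus strand).
snR58: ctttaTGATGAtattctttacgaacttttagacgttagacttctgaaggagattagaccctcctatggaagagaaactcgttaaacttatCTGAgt
snR61: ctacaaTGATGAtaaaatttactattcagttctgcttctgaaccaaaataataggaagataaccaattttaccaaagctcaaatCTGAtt
snR78: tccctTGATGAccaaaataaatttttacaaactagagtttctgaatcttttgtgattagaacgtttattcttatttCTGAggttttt

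snR58, with a row of 96 bases, had a density of 0.454 and 0.397 in WT, 0.562 and 0.422 in dbp2, 0.234 and 0.336 for WT-Dox, then 33.5 and 27.2 in tet-MTR4-Dox. Its dbp2 libraries overlapped with WT while the shut-off raised it 106-fold (difference -6.53 ± 0.25, adjusted p = 4.3e-08). snR61 was at 1.37 and 1.38 in WT, 1.42 and 1.31 in dbp2, 1.64 and 1.90 for WT-Dox, then 75.7 and 72.7 in tet-MTR4-Dox, so it too moved in the second comparison alone among those called. snR48 and snR71 rose 75.5-fold and 58.3-fold in tet-MTR4-Dox against 1.65-fold and 1.35-fold in dbp2.

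The 3 snoRNAs that fell in dbp2 were snR8, snR65 and snR68, and they rose in tet-MTR4-Dox. snR8, a box H/ACA guide of 190 bases, was at 20.8 and 23.2 in WT, 7.92 and 6.87 in dbp2, 19.9 and 22.3 for WT-Dox, then 130 and 116 in tet-MTR4-Dox, which puts the dbp2 and shut-off libraries on opposite sides of their controls. snR65 fell 1.35-fold in dbp2 and rose 19.9-fold in tet-MTR4-Dox. The 3 with the more positive change in dbp2 were snR78 and the intron-encoded snR191 and snR44. snR78 was at 1.90 and 1.66 in WT, 13.3 and 11.1 in dbp2, 1.48 and 1.53 for WT-Dox, then 3.11 and 3.47 in tet-MTR4-Dox, a rise of 6.81-fold against 2.18-fold (difference 1.64 ± 0.14, adjusted p = 3.1e-06). snR191 and snR44 rose 3.15-fold and 2.23-fold in dbp2 and 1.59-fold and 1.31-fold in tet-MTR4-Dox. Alike were snR85, which rose 4.77-fold and 4.11-fold, and snR35, with changes of 1.56 and 1.58. With snoRNAs as the basis these last fell in tet-MTR4-Dox by 0.68 and 1.13, and on the all-transcript basis snR35 fell there by 0.14.

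Genes just downstream of a snoRNA were among those that parted the strains most. Transcription of independent snoRNA genes is ended by Nrd1, Nab3 and Sen1, which hand the RNA to the exosome, and readthrough runs into the next gene. Among protein-coding genes no scarcer than their median, leaving out the targeted genes and strain markers, the 10 with the most negative difference were named, and of these, 6 lay within 400 bases downstream of a snoRNA on the same strand. The 21 genes in that window, which was set after values were seen, rose 3.25-fold at the median in tet-MTR4-Dox and 1.71-fold in dbp2. The difference was called below 0 for 15 and above 0 for 3, and its median was -1.19 (-1.34 to -1.03), against -0.03 for protein-coding genes and 27.5% of them called below 0. The 39 genes next downstream at a greater distance had a median of -0.20, with 15 below and 9 above, and the 11 genes as near on the upstream side -0.04, with 5 and 3. The snoRNA basis turned the median of the 21 to 0.60, against 1.72 for protein-coding genes.

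The 2 stretches below follow snoRNAs whose downstream gene rose in tet-MTR4-Dox, chosen after values were seen, and are shown for the short motifs that Nrd1 (GTAG or GTAA) and Nab3 (TCTT) are known to bind. Each is the first 120 bases after the snoRNA, on its own strand, from R64, and the capitals mark matches on that strand. The stretch after snR13 lies on chrIV:1403043-1403162 (plus strand) and that after snR47 on chrIV:541482-541601 (minus strand).
snR13 downstream: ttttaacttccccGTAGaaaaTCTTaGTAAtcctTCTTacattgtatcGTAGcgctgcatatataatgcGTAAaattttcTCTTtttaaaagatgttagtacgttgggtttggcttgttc
snR47 downstream: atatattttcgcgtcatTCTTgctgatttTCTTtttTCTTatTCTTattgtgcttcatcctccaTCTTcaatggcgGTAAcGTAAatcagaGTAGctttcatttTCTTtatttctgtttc

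The first holds 4 Nrd1 and 3 Nab3 motifs, the second 3 and 6. Among the 76 snoRNAs, GTAG was found after 35 (46.1%), GTAA after 37 (48.7%), TCTT after 68 (89.5%), and a Nrd1 motif together with TCTT after 50 (65.8%). The motifs are short and a match is not a binding site.

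TRS31, a subunit of the TRAPP vesicle-tethering complex, starts 279 bases after snR13. Its density was 0.332 and 0.295 in WT, 0.394 and 0.393 in dbp2, 0.294 and 0.281 for WT-Dox, then 5.72 and 5.25 in tet-MTR4-Dox. It rose 1.25-fold in dbp2 and 18.7-fold after the shut-off (difference -3.90 ± 0.11, adjusted p = 7e-09), and snR13 itself rose 1.42-fold and 11.9-fold. YDR042C, a frame of unknown function 398 bases after snR47, was at 0.0384 and 0.0457 in WT, 0.128 and 0.170 in dbp2, 0.0372 and 0.0428 for WT-Dox, then 5.76 and 5.14 in tet-MTR4-Dox, a rise of 3.22-fold against 120-fold. snR47 rose 2.80-fold and 38.3-fold.

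Of the 21 genes in the window, PDX3, DFR1 and RPS14A had a difference above 0, of 0.59, 0.60 and 0.51, and BUD22, RPL7A and GAL11 had none that was called. The following genes were among those below 0, and were picked with their values known. HEM4, of heme synthesis and 210 bases after snR5, rose 2.42-fold in dbp2 and 38.8-fold in tet-MTR4-Dox. FLX1, a mitochondrial FAD carrier 148 bases after snR68, rose 1.69-fold and 32.2-fold, CTO1 (193 bases after snR33) 1.99-fold and 23.1-fold, and SEN2, of tRNA splicing (246 bases after snR79), 1.71-fold and 11.9-fold. USE1, a SNARE 286 bases after snR82, rose 2.45-fold and 9.85-fold, and NVJ2, of a nucleus-vacuole junction and 231 bases after snR51, had changes of -0.07 and 1.93. YJL047C-A, whose row overlaps snR60 so that reads may be shared, rose 2.04-fold and 36.5-fold. Farther off, RGT1, a repressor of hexose transporter genes 728 bases after snR69, rose 10.9-fold in tet-MTR4-Dox with a change of 0.05 in dbp2, and REC104, a meiotic recombination gene 1589 bases after snR71, rose 53.4-fold and 2.99-fold. ATG31, of autophagy, also belonged to the 10 named genes and rose 9.84-fold against 1.48-fold, without a snoRNA in that window.

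**Figure D3:**
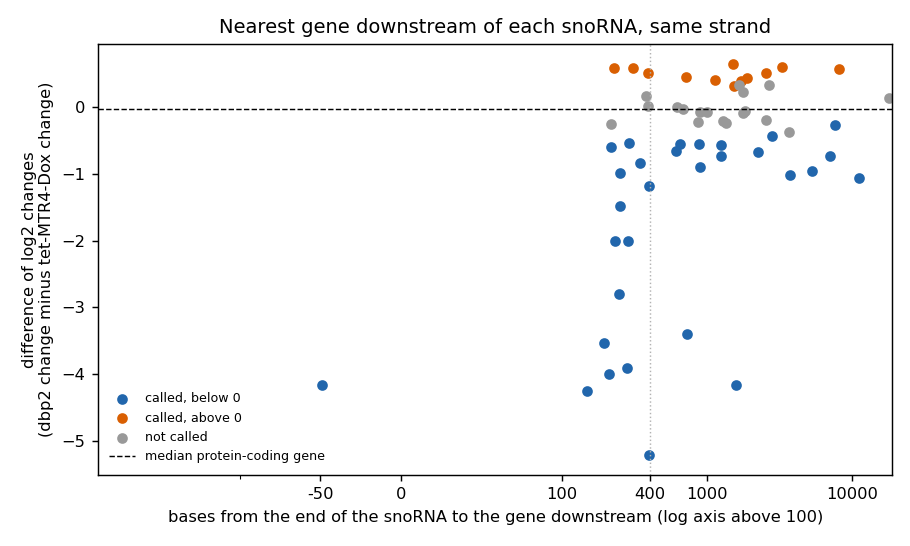
Difference of the log2 changes (dbp2 change minus tet-MTR4-Dox change) of the nearest protein-coding gene downstream of a snoRNA on the same strand, against the distance between them (log axis above 100 bases), with 1 point per gene coloured by its call. Most points far below 0 lie within 400 bases (dotted line), and the dashed line is the median protein-coding gene, at -0.03.

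Genes for the termination factors themselves rose more after the MTR4 shut-off. NRD1, whose own mRNA is ended early by the Nrd1 complex, had a density of 0.597 and 0.570 in WT, 1.12 and 1.06 in dbp2, 0.527 and 0.502 for WT-Dox, then 5.58 and 5.57 in tet-MTR4-Dox. It rose 1.86-fold in dbp2 and 10.7-fold in tet-MTR4-Dox, with no overlap between groups (difference -2.53 ± 0.09, adjusted p = 2.3e-08). HRP1, an mRNA cleavage factor also known for early termination of its own gene, rose 1.22-fold and 2.72-fold, the helicase gene SEN1 had changes of 0.01 and 1.12, and NAB3 of -0.14 and 0.70. Of the 9 genes in the list, 8 had the more positive change in tet-MTR4-Dox, against 27.5% of protein-coding genes. The list's median difference was -0.84. On the snoRNA basis the list's median turned to 0.93, SEN1 to 0.67, HRP1 to 0.63 and NAB3 to 0.93, whereas NRD1 stayed below 0.

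As deposited, 6 of 9 listed nucleotide genes were lower in dbp2 and higher in tet-MTR4-Dox, against 2.35% of protein-coding genes. Several of the listed genes are known for attenuation, in which transcription from an upstream start is ended early when the nucleotide is plentiful. Of the 9, not all of which are known for it, 7 fell and 1 rose in dbp2, and 7 rose and 1 fell in tet-MTR4-Dox. Of protein-coding genes 7.52% fell and 83.2% rose in dbp2, and 86.1% rose and 5.29% fell in tet-MTR4-Dox. In all, 8 of the 9 had the more positive change in tet-MTR4-Dox, against 27.5% of protein-coding genes. The list's median difference of -1.34 turned to 0.43 on the snoRNA basis. The one that rose in dbp2 was URA3, a deleted marker there and in WT, with 4 reads or fewer in each of those libraries. The median change in tet-MTR4-Dox was 0.55 as deposited and turned to -0.30 on protein-coding genes, -1.17 on all transcripts and -2.15 on snoRNAs. URA8, a CTP synthase, was at 0.277 and 0.257 in WT, 0.252 and 0.229 in dbp2, 0.232 and 0.195 for WT-Dox, then 0.891 and 0.835 in tet-MTR4-Dox, so that it rose 3.98-fold in the shut-off with a change of -0.15 ± 0.10 in dbp2. IMD2, the attenuated IMP dehydrogenase gene, fell 1.27-fold and rose 2.52-fold. URA1, URA4 and URA2, of pyrimidine synthesis, fell 2.52-fold, 1.74-fold and 1.33-fold in dbp2 and rose 1.46-fold, 1.46-fold and 1.58-fold in tet-MTR4-Dox. On the snoRNA basis the differences of IMD2, URA4 and URA2 turned to 0.11, 0.43 and 0.71.

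Of 15 purine synthesis genes, 6 fell in dbp2 and rose in tet-MTR4-Dox as deposited, and 6 rose in both. The shares of protein-coding genes were 2.35% and 77.7%. In all, 7 of the 15 rose and 8 fell in dbp2, and 12 rose and 1 fell in tet-MTR4-Dox. Of protein-coding genes 83.2% and 86.1% rose, and 7.52% and 5.29% fell. The difference was below 0 for 12 of the 15, against 27.5% of protein-coding genes. The list's median of -1.30 turned to 0.49 on the snoRNA basis. ADE16 had a difference above 0. ADE17, a bifunctional enzyme of the last steps to IMP, had a density of 3.45 and 3.34 in WT, 0.945 and 0.869 in dbp2, 0.127 and 0.124 for WT-Dox, then 0.748 and 0.786 in tet-MTR4-Dox. It fell 3.73-fold in one comparison and rose 5.89-fold in the other (difference -4.46 ± 0.10, adjusted p = 1.6e-09), and the 2 mutants ended closer to each other than their controls were. ADE12, adenylosuccinate synthase, fell 1.73-fold and rose 2.09-fold, and ADE1 fell 1.14-fold and rose 2.73-fold. The rise in tet-MTR4-Dox turned to a fall on the snoRNA basis for ADE17 (-0.10) and ADE12 (-1.65) and on the all-transcript basis for ADE12 (-0.66), and the difference of ADE1 turned to 0.15 on the snoRNA basis. The BMA64-1A strains carry ade2-1, a lesion of this pathway, and its part in these values was not tested.

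Most arginine genes had the more positive change in dbp2. Of 14 genes, 11 did, against 22.0% of protein-coding genes, and the list's median difference was 0.71. In dbp2 12 rose and 2 fell, and in tet-MTR4-Dox 7 rose and 4 fell, where 83.2% and 86.1% of protein-coding genes rose. Of the 14, 6 rose in both, 4 rose in dbp2 and fell in tet-MTR4-Dox, and 1 did the converse. The shares of protein-coding genes were 77.7%, 1.25% and 2.35%. The list's median change in dbp2 was 0.93 as deposited, and 0.10, -0.15 and 0.03 on protein-coding genes, all transcripts and snoRNAs. ARG1, argininosuccinate synthase, was at 0.200 and 0.183 in WT, 0.387 and 0.356 in dbp2, 2.58 and 2.56 for WT-Dox, then 0.566 and 0.631 in tet-MTR4-Dox. It rose 1.91-fold and fell 4.27-fold (difference 3.03 ± 0.12, adjusted p = 4.3e-08), from a control level that was higher in WT-Dox than in either BY4741 group, and its change in dbp2 turned to -0.14 on the all-transcript basis. ARG3, ornithine transcarbamylase, had changes of 1.99 and -1.58, ARG56 (an enzyme of the first steps to ornithine) rose 2.63-fold and fell 1.88-fold, and CPA1, of carbamoyl phosphate synthesis, had changes of 1.98 and 0.67. The 3 genes with the more positive change in tet-MTR4-Dox were ARG82, CAR1 and CAR2. Of these, CAR1 and CAR2 break arginine down, and CAR2 fell 3.89-fold in dbp2 and rose 1.21-fold in tet-MTR4-Dox.

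Most arginine synthesis genes respond to the activator Gcn4, and so does ADE17, yet their differences had opposite signs. The other 40 Gcn4-controlled amino acid genes had a median difference of -0.27, which turned to 0.35 on the all-transcript basis and 1.52 on the snoRNA basis. As deposited, 22 of these differences were below 0 and 5 above, against 27.5% and 22.0% of protein-coding genes. HIS4, of histidine synthesis, was at 2.61 and 2.36 in WT, 0.589 and 0.617 in dbp2, 1.30 and 1.18 for WT-Dox, then 1.26 and 1.502 in tet-MTR4-Dox, a fall of 4.09-fold in dbp2 with no detectable change in the shut-off (0.15 ± 0.09, adjusted p = 0.16). Upstream of both ARG1 and ADE17 the Gcn4 motif TGACTC was found at 2 positions. The windows below, of 60 bases each from R64 and shown because the genes moved oppositely, hold the match nearest to the coding start, in capitals (GAGTCA is TGACTC on the other strand). They lie on chrXV:218910-218969 (plus strand) for ARG1 and chrXIII:509425-509484 (minus strand) for ADE17.
ARG1 upstream: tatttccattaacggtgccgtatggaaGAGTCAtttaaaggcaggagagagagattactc
ADE17 upstream: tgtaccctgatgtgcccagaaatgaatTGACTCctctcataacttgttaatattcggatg

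The matches lie 269 and 172 bases before the genes. On either strand, TGACTC was found over 100 and up to 500 bases before 622 of 5610 protein-coding genes (11.1%).

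Transporter genes were among the others called in opposite directions. GAP1, the general amino acid permease, was at 0.139 and 0.136 in WT, 0.459 and 0.456 in dbp2, 2.18 and 2.22 for WT-Dox, then 1.30 and 1.48 in tet-MTR4-Dox, so it rose 3.24-fold in one strain and fell 1.58-fold in the other. BSC1, a frame of unknown function, rose 4.35-fold and fell 1.53-fold. MUP1, a methionine permease, and CTR1, a copper transporter, each rose 1.62-fold in dbp2 and fell, by 2.00-fold and 1.96-fold, in tet-MTR4-Dox. Their rise in dbp2 turned to a fall on every other basis, for MUP1 to -0.15, -0.40 and -0.23 on protein-coding genes, all transcripts and snoRNAs, and for CTR1 to -0.15, -0.40 and -0.22. DIP5, a permease for acidic amino acids, fell 1.62-fold and rose 1.81-fold, although its rise turned to -0.86 on the all-transcript basis and -1.84 on the snoRNA basis.

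**Figure D4:**
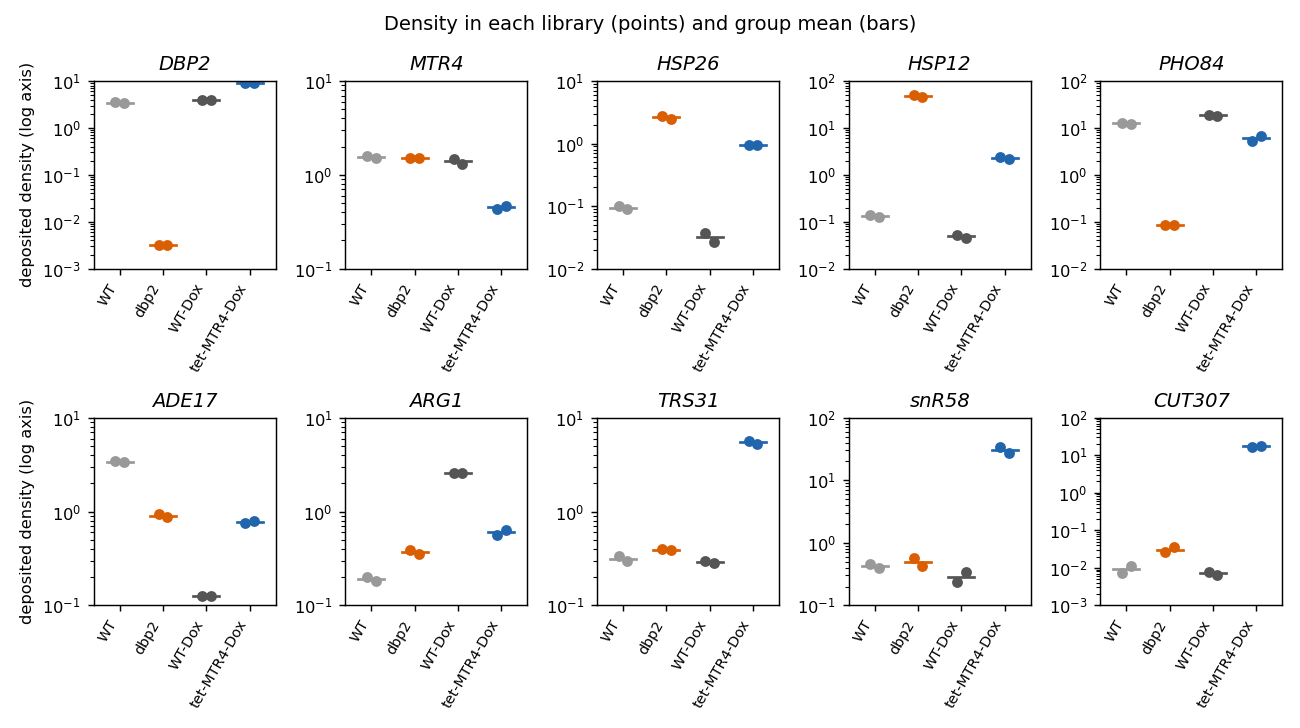
Deposited density of 10 transcripts in each of the 8 libraries (points, 2 per group) with the group mean (bars), on log axes that differ between panels. HSP26 rises alike in both mutants, HSP12 more in dbp2, PHO84 falls more in dbp2, ADE17 and ARG1 move in opposite directions, and TRS31, snR58 and CUT307 stand high in tet-MTR4-Dox.

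Stress genes had median rises of 5.66-fold in dbp2 and 3.64-fold in tet-MTR4-Dox as deposited, and the latter median turned to a log2 change of -0.79 on the snoRNA basis. Of 46 genes, 37 rose and 8 fell in dbp2, and 37 rose and 5 fell in tet-MTR4-Dox, where 83.2% and 86.1% of all protein-coding genes rose. The difference was above 0 for 27 and below 0 for 12, against 22.0% and 27.5% of protein-coding genes, and the list's median was 0.67. HSP12, a small membrane-associated stress protein, was at 0.136 and 0.125 in WT, 49.7 and 46.3 in dbp2, 0.0531 and 0.0451 for WT-Dox, then 2.39 and 2.195 in tet-MTR4-Dox. It rose 353-fold in dbp2 and 42.1-fold after the shut-off (difference 3.07 ± 0.12, adjusted p = 5.2e-08).

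Other genes of the general stress response moved likewise. DDR2 rose 284-fold and 47.2-fold, SIP18, of desiccation tolerance, 68.5-fold and 9.76-fold, and YGP1, a secreted glycoprotein of starved cells, 13.8-fold and 1.49-fold. HXT5, a hexose transporter of slow growth, rose 13.3-fold and 2.61-fold. FMP16, a mitochondrial protein, rose 43.8-fold and 4.22-fold, and COX26, a small subunit of the cytochrome oxidase supercomplex, 84.1-fold and 9.62-fold. CUP1-1 and CUP1-2 also had large differences, but they are near-identical copies and their values are uncertain. The stress element AGGGG was found 5 times over 100 and up to 500 bases before HSP12, on either strand, and 1651 of 5610 genes (29.4%) hold it there. The window on chrVI:107039-107098 (plus strand, R64), shown because no tested transcript rose more than HSP12 in dbp2, has the match nearest to the gene, 186 bases before it, in capitals (CCCCT is AGGGG on the other strand).
HSP12 upstream: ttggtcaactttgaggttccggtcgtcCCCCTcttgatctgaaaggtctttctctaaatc

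The 12 stress genes with the more positive change in tet-MTR4-Dox were mostly chaperones and their partners, such as HSP82, HSC82, SSA1, SSA2, STI1, SIS1 and YDJ1. HSP82, the heat-inducible Hsp90, was at 2.30 and 1.97 in WT, 1.16 and 0.980 in dbp2, 0.951 and 0.763 for WT-Dox, then 1.41 and 1.46 in tet-MTR4-Dox. It fell 1.99-fold and rose 1.68-fold, but the rise turned to a fall on the other bases, to -0.10, -0.97 and -1.95 on protein-coding genes, all transcripts and snoRNAs. STI1, an Hsp90 partner, had changes of -0.62 and 0.47, and its difference of -1.10 turned to 0.69 on the snoRNA basis.

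Genes of phosphate uptake and storage fell in both strains, by amounts that differed gene by gene. Of 19 genes, 13 fell and 5 rose in dbp2, and 12 fell and 3 rose in tet-MTR4-Dox. Of protein-coding genes 7.52% fell and 83.2% rose in dbp2, and 5.29% fell and 86.1% rose in tet-MTR4-Dox. PHO84, the high-affinity phosphate transporter, was at 13.0 and 12.3 in WT, 0.0863 and 0.0839 in dbp2, 18.7 and 18.2 for WT-Dox, then 5.16 and 6.81 in tet-MTR4-Dox, a fall of 140-fold against 3.11-fold (difference -5.49 ± 0.15, adjusted p = 6.1e-09). PHO5, the secreted acid phosphatase, went further in the other strain: it was at 0.865 and 0.790 in WT, 0.278 and 0.245 in dbp2, 2.58 and 2.44 for WT-Dox, then 0.135 and 0.180 in tet-MTR4-Dox, a fall of 3.13-fold against 15.5-fold (difference 2.31 ± 0.18, adjusted p = 1.5e-06). Its near-identical relatives among the acid phosphatases make the value of PHO12 uncertain, which fell 22.8-fold and 11.3-fold. SPL2, a regulator of low-affinity phosphate uptake, fell 13.4-fold and 2.45-fold, and VTC3, of polyphosphate synthesis, 6.88-fold and 2.48-fold.

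In this list 12 differences were below 0 and 5 above, against 27.5% and 22.0% of protein-coding genes. The list's median of -0.44 turned to 0.18 on the all-transcript basis and 1.34 on the snoRNA basis. There the differences of PHO12 and VTC3 turned to 0.67 and 0.30. PHM8, a nucleotide phosphatase that rose 13.3-fold and 2.10-fold, and GIT1, a glycerophosphoinositol permease that rose 3.54-fold in dbp2 with a change of 0.10 in tet-MTR4-Dox, went against the rest. The Pho4 motif CACGTG, which is its own reverse complement, was found 2 times over 100 and up to 500 bases before PHO84 and in that window of 318 of 5610 genes (5.67%). The window on chrXIII:26182-26241 (minus strand, R64), shown because PHO84 had the most negative difference of any protein-coding gene other than DBP2 and LYS2, holds both matches in capitals, the nearer 409 bases before the gene.
PHO84 upstream: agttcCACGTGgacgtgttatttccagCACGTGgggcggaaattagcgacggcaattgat

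Most translation and respiration genes had the more positive change in dbp2. Of 137 genes for cytosolic ribosomal proteins, 92 rose and 17 fell in dbp2 while 40 rose and 37 fell in tet-MTR4-Dox, and the difference was above 0 for 95 and below 0 for 7, against 22.0% and 27.5% of all protein-coding genes. The background of rises was 83.2% in dbp2 and 86.1% in tet-MTR4-Dox. The median changes of these genes were 1.27-fold and 1.01-fold as deposited, and the one in dbp2 turned to a log2 value of -0.51 on protein-coding genes, -0.76 on all transcripts and -0.58 on snoRNAs. For 75 mitochondrial ribosomal proteins the medians were 1.89-fold and 1.30-fold with 51 differences above 0, and for 40 respiratory chain genes 2.28-fold and 1.57-fold with 33 above. The median differences were 0.33, 0.46 and 0.56, and they were larger on the all-transcript and snoRNA bases.

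RPL15A, a large-subunit protein, had changes of 0.72 and -0.61. The 7 ribosomal protein genes below 0 went against the list, among them RPL8A, which fell 2.80-fold and rose 1.52-fold, and RPS14B, with changes of -0.26 and 1.68, and both have a paralog whose reads may be shared. ATP14, of the ATP synthase, was at 2.09 and 1.91 in WT, 9.61 and 9.02 in dbp2, 2.64 and 2.43 for WT-Dox, then 5.34 and 4.86 in tet-MTR4-Dox, a rise of 4.66-fold against 2.01-fold. MRPL16, of the mitochondrial ribosome, rose 3.56-fold and 1.78-fold.

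Genes encoded in the mitochondrion showed the same order. Of 22 measured among 28, 17 rose in dbp2, and 7 rose and 5 fell in tet-MTR4-Dox. Of all transcripts tested 84.6% rose in dbp2, and 91.1% rose and 3.16% fell in tet-MTR4-Dox. The difference was above 0 for 17 of the 22, against 14.1% of all transcripts tested, and the median of the 22 was 0.59. The median change of the 22 in dbp2 was 0.69 as deposited and turned to -0.15, -0.40 and -0.23 on protein-coding genes, all transcripts and snoRNAs. COX3, of cytochrome oxidase, was at 5.42 and 5.22 in WT, 11.5 and 10.6 in dbp2, 6.52 and 6.60 for WT-Dox, then 6.86 and 8.89 in tet-MTR4-Dox, a rise of 2.08-fold against 1.19-fold. ATP6, of the ATP synthase, rose 1.61-fold and fell 1.44-fold, with control densities of 3.53 and 2.66 in WT against 1.37 and 1.26 in WT-Dox.

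Most histone genes also had the more positive change in dbp2. Of 10 genes, the difference was above 0 for 8, against 22.0% of protein-coding genes, and the list's median was 0.77. As deposited 8 rose in dbp2, against 83.2% of protein-coding genes. In tet-MTR4-Dox 2 rose and 4 fell, against 86.1% and 5.29%. The median change in dbp2 was 0.56 as deposited, and it turned to -0.29, -0.54 and -0.37 on protein-coding genes, all transcripts and snoRNAs. HHF1, a histone H4 gene, was at 17.5 and 16.5 in WT, 37.9 and 35.6 in dbp2, 14.5 and 13.7 for WT-Dox, then 15.2 and 15.9 in tet-MTR4-Dox, a rise of 2.16-fold with no detectable change in the shut-off (0.14 ± 0.07, adjusted p = 0.066). HTA1, a histone H2A gene, rose 1.59-fold and fell 1.19-fold.

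These families have short transcripts, and length moved with the difference over all protein-coding genes. The median row was 993 bases for cytosolic ribosomal proteins, 841 for mitochondrial ones, 749 for respiratory chain genes and 709 for histones, against 1460 for protein-coding genes. Of the 1140 shortest protein-coding genes 342 had a difference above 0 and 278 below, and of the 1122 longest 100 and 443. The Spearman correlation of length with the difference was -0.20 over the 5610 genes, and its part in the results for these families was not tested.

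**Figure D5:**
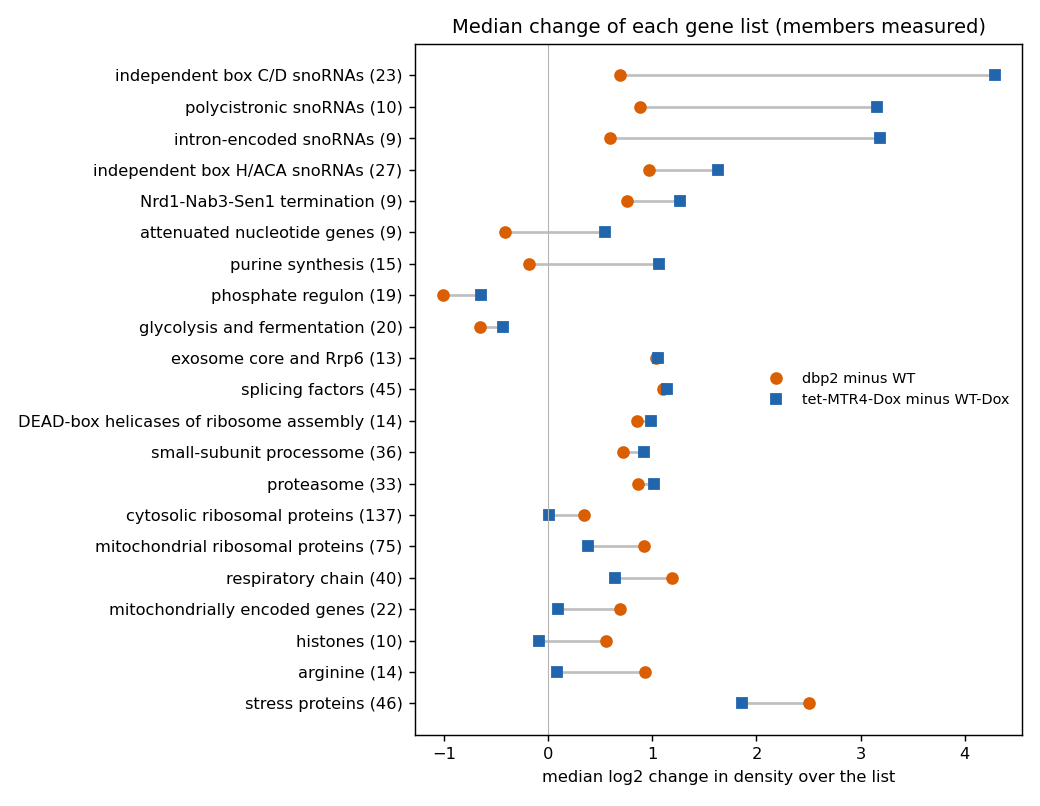
Median log2 change over each of 21 gene lists in dbp2 (circles) and in tet-MTR4-Dox (squares), with the number of members measured. The markers nearly coincide for exosome, splicing and ribosome assembly genes and lie far apart for box C/D snoRNAs, all as deposited. They fall on opposite sides of 0 for purine genes and the list labelled attenuated nucleotide genes, of which not all are known for attenuation.

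A large group of genes changed alike. HSP26, a small heat shock chaperone, was at 0.0992 and 0.0904 in WT, 2.78 and 2.48 in dbp2, 0.0368 and 0.0263 for WT-Dox, then 0.944 and 0.948 in tet-MTR4-Dox. It rose 26.2-fold and 25.9-fold, and the difference was 0.02 ± 0.18 on the log2 scale. PLN1, a lipid droplet protein, had changes of 2.68 and 2.69 from control densities of 0.220 and 0.225 in WT against 1.63 and 1.59 in WT-Dox. UBC5, a ubiquitin-conjugating enzyme, rose 5.18-fold and 4.56-fold, and SED1, a cell wall protein, 4.54-fold and 4.80-fold. On the snoRNA basis the changes in tet-MTR4-Dox turned to -0.018 for PLN1, -0.48 for UBC5 and -0.45 for SED1.

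Among shared falls were genes of fermentation and MET6, of methionine synthesis. ADH1, the main alcohol dehydrogenase of fermentation, was at 144 and 141 in WT, 39.6 and 38.2 in dbp2, 119 and 114 for WT-Dox, then 32.3 and 35.6 in tet-MTR4-Dox, a fall of 3.66-fold and 3.44-fold. PGK1, phosphoglycerate kinase, fell 2.41-fold and 2.54-fold, MET6, methionine synthase, 4.29-fold and 3.66-fold, and ASC1, a ribosomal scaffold protein, 2.50-fold and 2.91-fold. Of 31 sulfur amino acid genes measured, 10 were lower in both strains and 12 higher in both, against 3.03% and 77.7% of protein-coding genes. MET17, the gene deleted in WT, was present in dbp2, and its part in the MET6 value was not tested. Of 20 glycolysis and fermentation genes 11 were lower in both strains, against 3.03% of protein-coding genes. Only 6 (30%) were alike within 1.5-fold, against 42.4% of protein-coding genes. The difference was below 0 for 11 of the 20 and above 0 for 3, against 27.5% and 22.0% of protein-coding genes. ENO2, an enolase, and HXK2, the main glucose-growth hexokinase, fell further in dbp2, 3.35-fold against 1.84-fold and 3.47-fold against 1.47-fold, but on the snoRNA basis their differences turned to 0.93 and 0.55.

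As deposited, genes for RNA processing rose by like amounts in both strains. Of 13 genes for the exosome core and its nuclear partners, 13 rose in each strain and 12 were alike within 1.5-fold, the exception being MTR3, a ring subunit with changes of 1.30 and 0.87. All 45 splicing factor genes rose in both, and 31 were alike, as were 12 of 14 genes for DEAD-box helicases of ribosome assembly, relatives of DBP2, and 27 of 36 genes of the small-subunit processome. Each share alike stands against 42.4% of protein-coding genes, of which 77.7% were higher in both strains. Of the 4 TRAMP genes, 3 were alike. On the all-transcript basis, 13 of 13 exosome genes, 37 of 45 splicing factor genes and 14 of 14 of these helicase genes had a difference above 0, and the exosome median in tet-MTR4-Dox turned from 1.05 to -0.66.

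Some members of these and related lists had the more positive change in tet-MTR4-Dox. UTP20, of the small-subunit processome, had changes of 0.09 and 1.62, PRP8, the core splicing factor, of 0.36 and 1.16, and CDC39, the scaffold of Ccr4-Not, of -0.11 and 1.14. RPO21, the largest subunit of RNA polymerase II, fell 1.49-fold in dbp2 and rose 1.73-fold in tet-MTR4-Dox. The poly(A) RNA-binding protein gene NAB2 rose 1.51-fold and 3.73-fold, THO2, of an export complex, 1.34-fold and 3.18-fold, and NPL3, an mRNA-binding protein, had changes of -0.12 and 1.18. On the snoRNA basis these differences turned above 0, to 0.26 for UTP20, 0.98 for PRP8, 0.53 for CDC39, 0.43 for RPO21, 0.48 for NAB2 and NPL3 and 0.53 for THO2. XRN1, the main cytoplasmic exonuclease, turned to 0.60.

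The 4 genes of the 2-micron plasmid, a circular DNA that yeast carries in the nucleus, rose in both strains. R0010W, the FLP1 recombinase gene, was at 0.462 and 0.488 in WT, 6.36 and 6.21 in dbp2, 0.518 and 0.445 for WT-Dox, then 3.37 and 2.63 in tet-MTR4-Dox, a rise of 13.1-fold against 6.13-fold. R0020C, the REP1 partitioning gene, rose 1.60-fold and 4.43-fold, and on the snoRNA basis its difference of -1.47 turned to 0.32. Plasmid copy number was not measured, and its part in these values was not tested.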

How the data were processed

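Strand-specific total RNA, depleted of ribosomal RNA, was sequenced, per the labels' protocols. Tools listed in the submitters' processing notes, without roles, are featureCounts 2.0.0, HISAT2 2.2.0, DESeq2 and Trim Galore, with genome R64. The authors deposited a normalized density (signal) per transcript. From the values, 100% of densities above 0 are whole reads within 0.02 once multiplied by row length and divided by a library factor. Row lengths were themselves chosen to give whole reads, and for 884 genes this was the RefSeq length. In addition, 73 of 92 ERCC RNAs share a median deviation of 0.0038 in every library. Scaling by ERCC RNA is inferred and the step of their addition is not given in the sources used here, so a change per cell is not known.

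Log2(density + 0.00555), the 5th percentile of densities above 0, was fitted with limma 3.58.1 (R 4.3.3, lmFit and eBayes with trend, 4 residual degrees of freedom) over 8 libraries and 4 groups, keeping mean densities from the 10th percentile (0.0293) up. Alternatives covered 19 settings, including limma-voom on recovered reads. Count models (edgeR, DESeq2) were not run. The method was tested on simulated data. Depth was 15.98 M to 26.97 M reads, and p-values cover the spread of 2 biological replicates.

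Genes were named by rules on size, direction and likeness (largest differences, opposed calls, alike within 1.5-fold, for genes no scarcer than the protein-coding median, and up to 4 called per list or any member of a list of up to 20), and those given from short lists or for snoRNA neighbours beyond them were chosen after their values were seen. The members and the 47 gene lists were chosen with earlier results of these data known. Counts of near-identical copies are uncertain, and no positions were used for noncoding classes other than snoRNAs. Figures were drawn with matplotlib 3.10.9 and tables handled with pandas 2.3.3, scipy 1.17.1 and numpy 2.4.6 in Python 3.11.15.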

Additional observations from a re-analysis of the deposited data

Results flagged for a closer look

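The libraries without XRN1 entered no comparison above. In them the 21 genes within 400 bases downstream of a snoRNA had a median log2 change from WT of 1.39 (-0.09 to 2.62), below that of protein-coding genes. The median protein-coding gene there changed by 1.90, the 23 independent box C/D snoRNAs by -0.0033 and the 27 independent box H/ACA snoRNAs by -0.29, so that neither these snoRNAs nor the downstream genes rose above the rest as they did after the MTR4 shut-off. The WT libraries are those of the dbp2 comparison.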

How the results depend on the processing

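Of 142 named values, 95 kept their direction and call under all 19 settings, 0 were reversed and 0 lost their call without any single library, and the others changed call or direction only with the scaling. On protein-coding genes, transcripts higher in both strains numbered 3386, lower in both 1746, higher in dbp2 only against a fall 207 and the converse 563. On all transcripts these were 1606, 3122, 724 and 391, with 4582 differences above 0 and 1260 alike. On snoRNAs they were 1135, 1329, 721 and 116, with 6128 differences above 0, 1877 below 0 and 0 alike. Class medians on all transcripts were 0.58 for protein-coding genes, -1.01 for XUTs, -2.54 for CUTs, -1.95 for NUTs and -0.63 for snoRNAs, and on snoRNAs 1.72, 0.078, -1.45, -0.85 and 0.54.

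Medians of XUTs, CUTs and NUTs also moved with a pseudocount 4 times larger (-1.34, -2.68 and -2.09) or smaller (-1.69, -3.39 and -2.72), with a stricter filter (-1.90, -3.33 and -2.66) and with limma-voom (-1.70, -3.36 and -2.75), and those of XUTs and NUTs with no filter (-1.47 and -2.42) and with all 10 libraries (-1.51 and -2.49). Leaving out each library in turn gave -1.65 to -1.53 for XUTs, -2.62 to -2.48 for NUTs and -1.50 to -1.20 for snoRNAs.

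Reversed on protein-coding genes were the dbp2 changes of CTR1 (-0.15) and MUP1 (-0.15) and the tet-MTR4-Dox change of HSP82 (-0.10). On all transcripts these were -0.40, -0.40 and -0.97, with ARG1 in dbp2 (-0.14) and ADE12 (-0.66), DIP5 (-0.86) and snR35 (-0.14) in tet-MTR4-Dox. On snoRNAs the differences of XRN1 (0.60), HRP1 (0.63), SEN1 (0.67), NAB3 (0.93), IMD2 (0.11), URA4 (0.43), URA2 (0.71), ADE1 (0.15), PHO12 (0.67), VTC3 (0.30), NAB2 (0.48), NPL3 (0.48), THO2 (0.53), CDC39 (0.53), RPO21 (0.43), UTP20 (0.26), PRP8 (0.98), ENO2 (0.93), HXK2 (0.55), R0020C (0.32) and STI1 (0.69) were reversed, as were the dbp2 changes of CTR1 (-0.22) and MUP1 (-0.23) and the tet-MTR4-Dox changes of ADE17 (-0.10), ADE12 (-1.65), DIP5 (-1.84), HSP82 (-1.95), XUT0419 (-0.44), PLN1 (-0.018), UBC5 (-0.48), SED1 (-0.45), CUT554 (-0.68), NUT0791 (-0.34), snR85 (-0.68) and snR35 (-1.13). These follow from the shift each basis adds, and the causes of the other moves were not tested.

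A replicate block gave 1428 differences above 0 and 5022 below, against 1361 and 4934. Replicates of the same number did not deviate together (correlations of -0.15 to 0.10 across 3126 transcripts), so the numbers were not taken to pair the libraries, and leaving out each library in turn gave 993 to 1528 differences above 0 and 4500 to 5096 below. With 2 libraries per group, differences of scarce transcripts were the least certain.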
